A study of Mus musculus with 12 samples.

Results

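Cytokine receptors of the class that signals through Janus kinases (JAKs) and STAT transcription factors were described by 10 listed genes: the receptor chains Il7r, Il2rg, Il4ra and Il6ra, the kinases Jak1 and Jak3, the transcription factor Stat3, and the feedback inhibitors Socs1, Socs3 and Cish. A gene was taken up if it had an array probe set annotated to that gene alone, and of several such probe sets the brightest, by its mean over the arrays, was used. By this rule 8 of the 10 genes were measured, of 19309 genes in all. Il2rg had no probe set in the table used here, and the probe set of Jak3 also names the neighbouring gene Insl3, so neither has a value below. RNA of thymus cells was profiled on 12 whole-transcript arrays, all from mice of the FVB/N background. Normal thymocytes were wild type and 24 days old (3 arrays). Control tumors were thymic T-cell lymphomas driven by MYC in mice that were wild type for Dnmt3a, taken at the terminal stage (5 arrays). Dnmt3a-deficient tumors were MYC lymphomas, also terminal, lacking Dnmt3a, an enzyme that places new DNA methylation, in the hematopoietic compartment (4 arrays). Tumor state and MYC differ together between normal thymocytes and tumors. Age may differ too, as the labels give no age for the tumors, and these cannot be told apart. Neither the promoter behind MYC nor the agent that deleted Dnmt3a is named in the sources used here. Separate mice for each array are not stated in the labels, so the p-values describe the spread among these arrays, which may be technical.

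A cytokine of this class brings receptor chains together, the JAKs bound to their tails phosphorylate each other and the receptor, and a recruited STAT protein is phosphorylated, enters the nucleus and switches on target genes. Among those targets are the SOCS proteins and CISH, which bind the receptor or the kinase and close the loop. In the thymus, IL-7 signaling through Il7r, Jak1 and Jak3 keeps early thymocytes alive, is shut off at the CD4 CD8 double-positive stage, where Socs1 is high, and returns in mature thymocytes.

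All values are log2 expression per probe set, relative to the other signal of the array, and a level of a gene is compared here only between arrays. Median log2 values were 6.40 to 6.58 on the 12 arrays, and the 75th percentile was 8.50 to 8.60 in all deficient tumors and in control tumors 1 and 2 but 8.13 to 8.30 elsewhere. The Dnmt3a probe set read 9.48 ± 0.15 (SD, n = 3) in normal thymocytes, 8.67 ± 0.53 (n = 5) in control tumors and 7.42 ± 0.20 (n = 4) in deficient tumors, with no overlap between the tumor groups. The mean of 11 thymocyte markers (among them Cd3e, Cd4, Cd8a and Thy1) was 11.57 to 11.75 in normal thymocytes, 10.46 to 11.13 in control tumors and 10.17 to 10.83 in deficient tumors. The single markers did not move alike. Cd2 averaged 11.71 in normal thymocytes and 8.50 in deficient tumors, and Cd8a was as low as 7.60 in 1 control tumor. In deficient tumors the difference from normal thymocytes was only -0.15 for Cd3e and -0.36 for Thy1. Ptprc went the other way, with means higher by 1.14 in control tumors and 0.64 in deficient tumors, though its arrays overlapped those of normal thymocytes. Of the 11 thymocyte markers, 5 were called lower in control tumors and 6 in deficient tumors against normal thymocytes (adjusted p under 0.05 in limma, described below). This compares with 11.3% and 19.0% of all genes. The mean of 11 neutrophil markers was 7.82 and 7.64 in control tumors 3 and 4, against 5.59 to 5.79 in the other control tumors, 5.31 to 5.93 in deficient tumors and 6.24 to 6.63 in normal thymocytes. The mean of 12 macrophage markers was 6.56 to 6.76 in normal thymocytes, 6.14 to 7.77 in control tumors and 6.87 to 7.68 in deficient tumors. Of these 12, 2 and 3 were called higher in control and deficient tumors than in normal thymocytes, beside 13.0% and 18.7% of all genes. The mean of 6 adipocyte markers was 8.16 in control tumor 2, which had the highest Il7r and Stat3 of the control tumors, and 5.16 to 5.46 on the other arrays. Neutrophils and macrophages carry Il4ra, Il6ra and Socs3 too. The part of other cell types in the results below was not tested. In such bulk RNA, fewer cells of a type and less RNA per cell cannot be told apart.

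Against normal thymocytes, Il4ra and Cish were called lower in both tumor groups, Socs1 lower in deficient tumors and Jak1 higher in control tumors. Socs1 was lower by a similar amount in both tumor groups (limma: deficient -1.11, adjusted p = 0.0436, control -1.05, adjusted p = 0.0621). Only the calls of Cish and that of Il4ra in deficient tumors held in every alternative fit that kept the gene. No difference of the 8 genes between deficient and control tumors passed the test. A gene was called when its adjusted p from limma, a linear model with moderated variances fitted to all 19309 genes, was under 0.05 after Benjamini-Hochberg adjustment. In control tumors 3 of 8 genes (37.5%) were called against normal thymocytes, 1 higher and 2 lower, beside 24.4% of all genes (13.0% higher, 11.3% lower). In deficient tumors 3 of 8 (37.5%) were called, all lower, beside 37.6% of all genes (18.7% higher, 19.0% lower), so the share there is that of the array as a whole. At an unadjusted p under 0.05 there were 6 of 8 in each comparison, beside 35.8% and 46.7% of all genes. The median difference of the 8 genes was -0.45 and -0.61 in these comparisons, against -0.08 and -0.10 over all genes. Both comparisons use the same 3 normal arrays. The count in control tumors fell to 1 without normal thymocytes 2.

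**Figure D1:**
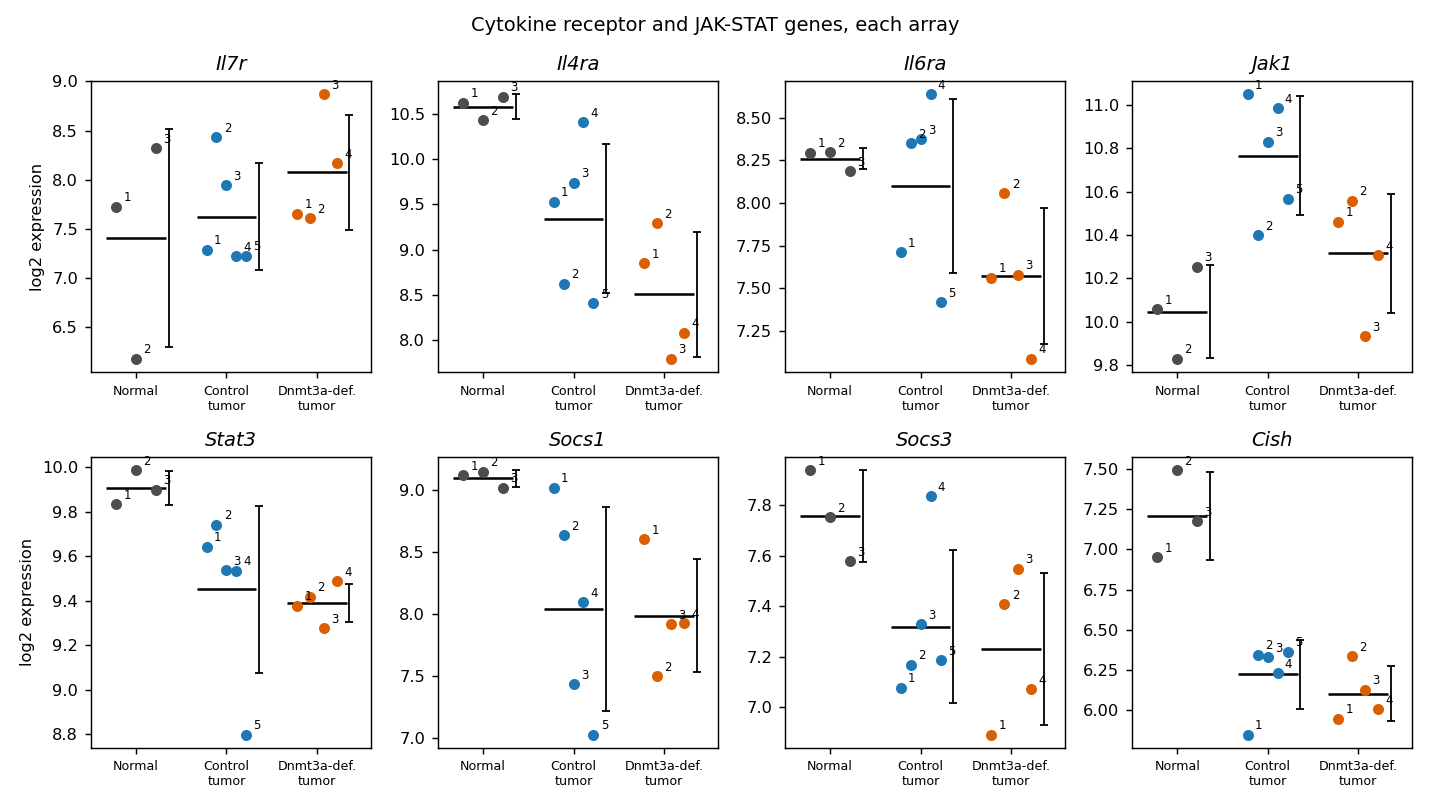
Log2 expression of the 8 measured genes on each array (y axis), with normal thymocytes in grey, control tumors in blue and Dnmt3a-deficient tumors in orange. Numbers are replicate numbers, horizontal bars are group means, error bars are SD (n = 3, 5 and 4), and the y axes differ between panels and do not start at 0. All tumors lie below all normal thymocytes for Il4ra, Stat3 and Cish.

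Among the receptors only Il4ra was called. It encodes the alpha chain of the receptors for IL-4 and IL-13, which signal through Jak1 and STAT6. Its log2 values in normal thymocytes 1 to 3 were 10.62, 10.43 and 10.69. Control tumors 1 to 5 read 9.53, 8.62, 9.74, 10.41 and 8.41, and deficient tumors 1 to 4 read 8.85, 9.29, 7.79 and 8.08. Every tumor lay below every normal array, with control tumor 4 just under the lowest of them, and the control tumors alone spanned 2.00 log2 units. Deficient tumors differed from normal thymocytes by -2.08 (SE 0.445, adjusted p = 0.00265), a level 4.22-fold lower, and this call held in each of the 16 alternatives run (-2.46 to -1.84, adjusted p up to 0.0131). Control tumors differed by -1.24 (SE 0.425, adjusted p = 0.0489), or 2.36-fold lower. That call ended without any 1 normal array or without control tumor 1, 2, 3 or 5 (adjusted p 0.0523 to 0.133), and also in the fit of these 2 groups alone (adjusted p = 0.0553) and with array weights (0.0739). Without control tumors 3 and 4, those with the high neutrophil markers, the difference was -1.73 (adjusted p = 0.00673), and without control tumors 1 and 2 it was -1.06 (adjusted p = 0.121). The deficient tumors averaged 0.84 below the control tumors, with an interval from -1.68 to 0.01, and the groups overlapped (adjusted p = 0.250). Without control tumors 3 and 4 that difference was -0.35 (adjusted p = 0.760).

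Il7r encodes the alpha chain of the IL-7 receptor, which marks early and mature thymocytes and is low at the double-positive stage. It read 7.72, 6.17 and 8.32 in normal thymocytes 1 to 3, 7.29, 8.43, 7.94, 7.22 and 7.23 in control tumors 1 to 5, and 7.65, 7.60, 8.87 and 8.17 in deficient tumors 1 to 4. The groups overlapped in all 3 comparisons. Normal thymocytes were the most scattered group: their SD of 1.11 was larger than that of 99.9% of genes on the same arrays, with normal thymocytes 2 far below the other two. Deficient tumors differed from normal thymocytes by 0.67 (95% interval -0.34 to 1.68, adjusted p = 0.283) and control tumors by 0.22 (-0.75 to 1.18, adjusted p = 0.773). Without normal thymocytes 2 these differences were 0.05 and -0.40. Between the tumor groups the difference was 0.45 (-0.44 to 1.34, adjusted p = 0.557), and 0.19 without deficient tumor 3. The difference of control tumors from normal thymocytes was 0.014 without control tumor 2.

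Il6ra encodes the ligand-binding chain of the IL-6 receptor, which signals with gp130 through Jak1 and STAT3. Normal thymocytes 1 to 3 read 8.29, 8.30 and 8.19, control tumors 1 to 5 read 7.71, 8.35, 8.37, 8.64 and 7.42, and deficient tumors 1 to 4 read 7.56, 8.06, 7.58 and 7.09. All deficient tumors lay below all normal arrays, whereas 3 control tumors lay above them and 2 below. The difference of deficient tumors from normal thymocytes was -0.69 (SE 0.281, adjusted p = 0.0701), which missed the threshold here and passed it in 6 of 16 alternatives, among them the fit without deficient tumor 2 (-0.85, adjusted p = 0.0351) and that with only the 2 groups compared (adjusted p = 0.0202). Control tumors differed from normal thymocytes by -0.16 (adjusted p = 0.709) and deficient from control tumors by -0.53 (interval -1.06 to 0.01, adjusted p = 0.251). Without control tumors 3 and 4 these differences were -0.43 (adjusted p = 0.265) and -0.26 (adjusted p = 0.749). Control tumor 4 was the highest of the tumors for Il4ra, Il6ra and Socs3, and control tumor 5 was the lowest control tumor for Il4ra, Il6ra, Stat3 and Socs1.

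Jak1, the kinase shared by the IL-7, IL-4, IL-6 and interferon receptors, was the only 1 of the 8 genes with a called increase. It read 10.06, 9.83 and 10.25 in normal thymocytes 1 to 3, 11.05, 10.40, 10.83, 10.99 and 10.57 in control tumors 1 to 5, and 10.46, 10.56, 9.93 and 10.31 in deficient tumors 1 to 4. All control tumors lay above all normal arrays, while the deficient tumors spanned both groups. Control tumors were higher by 0.72 (SE 0.189, adjusted p = 0.0134), a 1.65-fold increase. The call ended without normal thymocytes 2 (0.61, adjusted p = 0.0776), without control tumors 3 and 4 (0.63, adjusted p = 0.0564), with arrays centred on their 75th percentile (0.51, adjusted p = 0.0674) and after cyclic loess normalization (0.50, adjusted p = 0.0752). Deficient tumors differed from normal thymocytes by 0.27 (adjusted p = 0.309), a value that turned to -0.11 with the 75th percentile centring and to -0.0385 with cyclic loess. Deficient tumors were 0.45 below control tumors (95% interval -0.83 to -0.08, unadjusted p = 0.0219, adjusted p = 0.178).

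Stat3, the transcription factor activated by IL-6 and related cytokines, lay lower in every tumor than in any normal array, by amounts that missed the threshold. Normal thymocytes 1 to 3 read 9.84, 9.99 and 9.90, control tumors 1 to 5 read 9.64, 9.74, 9.54, 9.54 and 8.80, and deficient tumors 1 to 4 read 9.38, 9.42, 9.28 and 9.49. Deficient tumors were tightly grouped (SD 0.09) and differed from normal thymocytes by -0.52 (SE 0.195, adjusted p = 0.0516). Control tumors differed by -0.46 (SE 0.187, adjusted p = 0.0948), with control tumor 5 far below the others. Without that tumor the difference was -0.29 (adjusted p = 0.101), and without control tumors 1 and 2 it was -0.62 (adjusted p = 0.0305). The difference between tumor groups was -0.06 (interval -0.43 to 0.31, adjusted p = 0.870). Of 16 alternatives 7 brought the deficient tumors past the threshold, among them the fit with only the 2 groups compared (adjusted p = 0.00629) and cyclic loess (-0.85, adjusted p = 0.00272).

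Cish, Socs1 and Socs3 are feedback inhibitors that STAT proteins, among other factors, induce. STAT dimers bind palindromes of the form TTCNNNGAA, which read the same on both strands. The window from 250 bases before to 50 after the annotated start of each of the 10 genes was searched for it in RefSeq promoter sequences (build GRCm38.p6). Cish, Il7r and Socs3 held it and the other 7 genes did not, beside 8.3% of 32851 promoter windows of the same length. Cish held 2 copies, the second starting 11 bases after the first, as did 0.457% of windows with at least 2 copies. The MYC-binding hexamer CACGTG stood in the window of Il6ra alone, beside 7.15% of windows, and the STAT6 form of the palindrome, with 4 free letters between TTC and GAA, in none of the 10, beside 6.95%. The sites are shown because Cish was the most stable change among the 8 genes, with the matched letters in capitals, 5′ to 3′ on the strand of the gene. The Cish window lies at chr9:107296655-107296682 (plus strand), and on the minus strand lie those of Il7r at chr15:9530000-9530028, Socs3 at chr11:117969502-117969530 and Il6ra at chr3:89913205-89913230.
Cish: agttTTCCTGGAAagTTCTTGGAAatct
Il7r: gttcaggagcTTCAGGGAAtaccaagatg
Socs3: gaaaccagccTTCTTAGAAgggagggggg
Il6ra: tgctgtgtgtCACGTGcatgtgggaa
A match is a description of letters, and no binding was measured here.

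Cish, the gene with the paired palindromes, encodes a SOCS-family protein induced mainly by STAT5 downstream of IL-2 and IL-7. It read 6.95, 7.50 and 7.17 in normal thymocytes 1 to 3, 5.85, 6.34, 6.33, 6.23 and 6.36 in control tumors 1 to 5, and 5.95, 6.33, 6.13 and 6.01 in deficient tumors 1 to 4. The 9 tumors fell within a narrow band under all normal arrays, and the tumor groups overlapped. These tumor values also lie under the array medians of 6.40 to 6.58, and the part of low signal in the narrow band was not tested. Control tumors were lower by 0.98 on the log2 scale (difference -0.98, SE 0.167, adjusted p = 7.5e-04) and deficient tumors by 1.10 (difference -1.10, SE 0.174, adjusted p = 3.0e-04), which is 1.98-fold and 2.15-fold lower. These calls held in all 18 and 15 alternatives that kept the gene, with differences from -1.20 to -0.84 and from -1.49 to -0.94. Deficient tumors differed from control tumors by -0.12 (interval -0.45 to 0.21, adjusted p = 0.687).

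Socs1 encodes the inhibitor that binds JAKs directly and restrains IL-7 and interferon signaling in double-positive thymocytes. Normal thymocytes 1 to 3 read 9.12, 9.15 and 9.02, control tumors 1 to 5 read 9.02, 8.63, 7.43, 8.09 and 7.03, and deficient tumors 1 to 4 read 8.60, 7.50, 7.92 and 7.93. Control tumor 1 was as high as the lowest normal array, and control tumors 3 and 5 were the lowest arrays. All deficient tumors lay below all normal arrays. Deficient tumors were lower by 1.11 (SE 0.399, adjusted p = 0.0436), a 2.15-fold decrease whose call ended without any 1 normal array or without deficient tumor 2, 3 or 4 (adjusted p 0.0807 to 0.111). Control tumors differed by a similar -1.05 (SE 0.382, adjusted p = 0.0621), which did not pass, but did without control tumor 1 (-1.30, adjusted p = 0.0140), without control tumor 2 (-1.20, adjusted p = 0.0400) and without both (-1.57, adjusted p = 0.00158). The tumor groups differed by -0.05 (interval -0.81 to 0.70, adjusted p = 0.949), and this value turned to 0.47 without control tumors 1 and 2.

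Socs3 encodes the inhibitor that docks on gp130 and limits STAT3. Normal thymocytes 1 to 3 read 7.94, 7.75 and 7.58, control tumors 1 to 5 read 7.08, 7.17, 7.33, 7.83 and 7.19, and deficient tumors 1 to 4 read 6.89, 7.41, 7.55 and 7.07. Deficient tumors lay below all normal arrays, and among control tumors only tumor 4 reached them. Neither difference from normal thymocytes was called (deficient -0.53, SE 0.207, adjusted p = 0.0612; control -0.44, SE 0.197, adjusted p = 0.131). Without control tumor 4 the control tumors differed by -0.57 (adjusted p = 0.0319), and without deficient tumor 3 the deficient tumors by -0.63 (adjusted p = 0.0400). A second, dimmer probe set of Socs3 had group means of 6.15 ± 0.26 (SD, n = 3), 5.73 ± 0.30 (n = 5) and 5.55 ± 0.08 (n = 4), in the same order. The tumor groups differed by -0.09 (interval -0.48 to 0.30, adjusted p = 0.813). Cish was called against normal thymocytes in both tumor groups, Socs1 in deficient tumors alone and Socs3 in neither. Of all genes 24.4% were called in control tumors and 37.6% in deficient tumors. The 6 differences of these genes were below 0 in each alternative that gave a value, but all rest on the same 3 normal arrays.

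**Figure D2:**
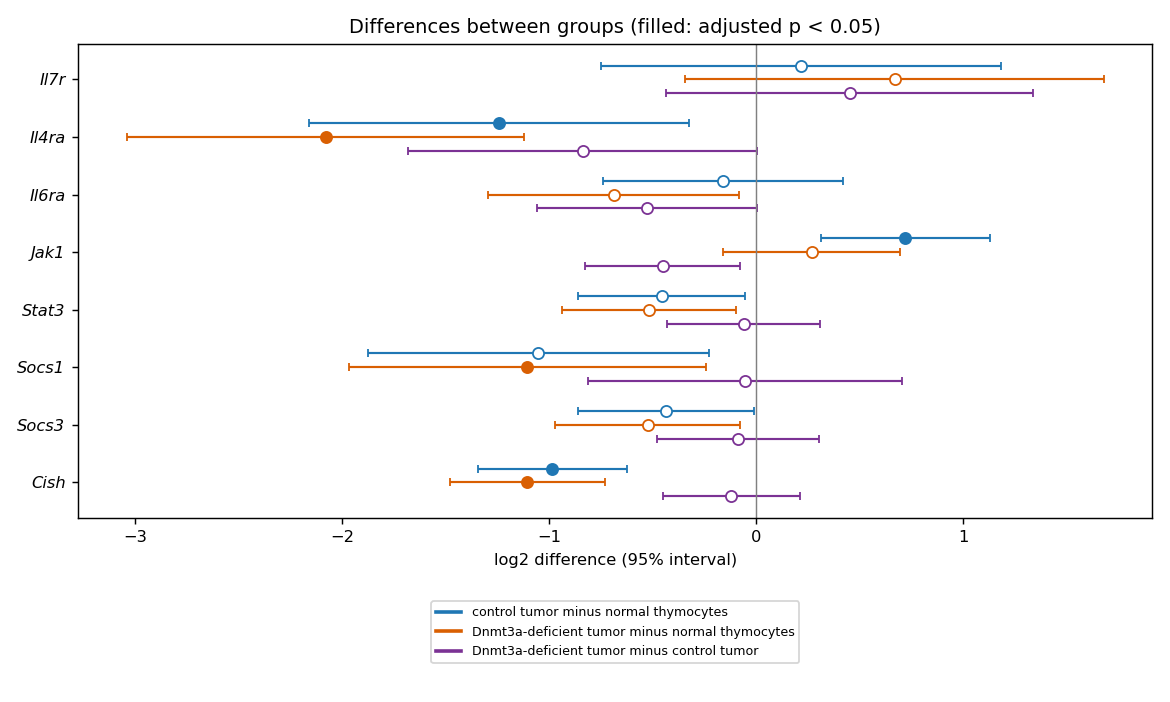
Log2 differences of the 8 genes (x axis) in the 3 comparisons, with 95% intervals from limma; filled points had an adjusted p under 0.05. Cish and Il4ra lie left of 0 in both tumor groups against normal thymocytes, Jak1 lies right of 0 in control tumors, and every point of deficient against control tumors is open.

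Between deficient and control tumors limma called 0 of 8 genes, beside 0.818% of all genes (0.59% higher, 0.228% lower). At an unadjusted p under 0.05 there was 1 of 8, Jak1, beside 20.2% of all genes. With weights for the quality of each array, 2 were called, Il4ra (-1.15, adjusted p = 0.0472) and Jak1 (-0.52, adjusted p = 0.0434). In all 8 genes the arrays of the groups overlapped, beside 6.15% of all genes in which they did not (3.8% above, 2.35% below). Against normal thymocytes, 4 of the 8 genes showed no overlap in control tumors (Il4ra, Jak1, Stat3, Cish), beside 27.7% of all genes (13.8% above, 14.0% below). In deficient tumors these were 6 of 8, all below (all but Il7r and Jak1), beside 49.7% (23.0% above, 26.7% below). The intervals of the difference between tumor groups reached -1.68 for Il4ra and 1.34 for Il7r, and those of Stat3, Socs3 and Cish stayed between -0.48 and 0.31.

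The genes also differed in how much tumors varied. The SD over control tumors was 0.83 for Il4ra and 0.82 for Socs1, larger than that of 95.6% and 95.5% of genes, and 0.22 for Cish, larger than that of 32.3%. In deficient tumors the SD was 0.69 for Il4ra, larger than that of 97.0% of genes, and 0.09 for Stat3, larger than that of 10.8%. In normal thymocytes the same Il4ra and Socs1 had SDs of 0.14 and 0.07, below the median of all genes, 0.19. Deficient tumor 3 combined the lowest Il4ra of all 12 arrays with the highest Il7r.

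The 93 other genes of the pathway, in 5 lists by role, gave 88 measured genes. In control tumors 26 of them (29.5%) were called against normal thymocytes, 6 higher and 20 lower, and in deficient tumors 30 (34.1%), 6 higher and 24 lower, beside the 24.4% and 37.6% of all genes given above. Of 28 other receptors 2 were higher and 4 lower in control tumors, beside 13.0% higher and 11.3% lower of all genes. In deficient tumors 1 was higher and 6 lower, beside 18.7% and 19.0%. In all these were 6 and 7 of 28, shares under the 24.4% and 37.6% of all genes. Il9r, the IL-9 receptor chain that pairs with the common gamma chain, went from 7.07 ± 0.10 (SD, n = 3) in normal thymocytes to 9.99 ± 0.18 (n = 5) in control tumors and 9.84 ± 0.18 (n = 4) in deficient tumors, with differences of 2.93 (SE 0.143, adjusted p = 2.0e-07) and 2.77 (SE 0.149, adjusted p = 3.0e-07). Every tumor was thus over 2 log2 units above every normal array for this receptor. Ifngr1, the ligand-binding chain of the interferon gamma receptor, fell from 11.36 ± 0.15 to 9.17 ± 0.39 and 9.26 ± 0.43 (adjusted p = 3.2e-05 and 3.9e-05). Il2ra, the inducible chain of the IL-2 receptor and a STAT5 target, was lower in control tumors by 1.52 (SE 0.265, adjusted p = 9.4e-04) and in deficient tumors by 0.85 (SE 0.278, adjusted p = 0.0277). Deficient tumor 2 read 6.71 for Il2ra, above normal thymocytes 1 and 3 (6.57 and 6.68). Control tumors read 4.85 to 5.69, near the 25th percentiles of the arrays (5.09 to 5.32), and the part of low signal was not tested. Il21r, the IL-21 receptor chain, was lower in deficient tumors by 1.95 (SE 0.494, adjusted p = 0.00756). Its normal values were 9.75 to 10.05. Control tumors 3 and 4 read 9.60 and 10.14. Control tumors 1, 2 and 5 read 8.25, 8.15 and 8.07, within the span of the deficient tumors (lowest 7.28, highest 8.95). Control tumors differed from normal thymocytes by -1.09 (adjusted p = 0.114), and deficient from control tumors by -0.86 (adjusted p = 0.280).

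Of 7 other kinases and STAT factors 1 was higher and 2 lower in control tumors, and 1 higher and 3 lower in deficient tumors, which makes 42.9% and 57.1% called beside 24.4% and 37.6% of all genes. Stat2, a transcription factor of type I interferon signaling, was lower in both (-1.26, SE 0.155, adjusted p = 6.8e-05; -0.92, SE 0.162, adjusted p = 7.1e-04), and so was Stat6, which acts below Il4ra (-0.53 and -0.58, adjusted p = 0.0113 and 0.00554). Stat5b, which carries IL-7 and IL-2 signals, was lower in deficient tumors by 1.09 (SE 0.218, adjusted p = 0.00164), with a control difference of -0.43 (adjusted p = 0.157). The direct difference in Stat5b between the tumor groups was -0.66 (adjusted p = 0.109). The kinase Jak2 was higher in control tumors by 0.85 (SE 0.247, adjusted p = 0.0228), a call lost without normal thymocytes 2 (0.57, adjusted p = 0.146), with 75th percentile centring and after a second quantile normalization. The kinase Tyk2 was higher in deficient tumors by 1.21 (SE 0.295, adjusted p = 0.00614), with deficient tumors 1 and 3 at 9.46 and 9.42 and the other two at 8.37 and 8.32.

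Of 17 other genes listed as negative regulators 3 were higher and 4 lower in each tumor group against normal thymocytes, 41.2% in both, beside 24.4% and 37.6% of all genes. The higher genes were not the same. Beside Ptpn2 and Socs4 they were Pias2 in control tumors (0.86, adjusted p = 0.0110) and Ptpn11 in deficient tumors (0.63, adjusted p = 0.0194). Pias2 and Ptpn11 were named after their values were seen. Ptpn2, a phosphatase that acts on JAK1, JAK3 and STATs, rose from 6.96 ± 0.12 to 8.98 ± 0.16 in control tumors and 9.20 ± 0.12 in deficient tumors (differences 2.01 and 2.24, adjusted p = 9.4e-07 and 3.7e-07). With the mean of both its probe sets the differences were 1.33 and 1.33. Socs4 was higher by 0.87 and 1.04 (adjusted p = 0.00934 and 0.00301), the opposite direction to Socs1 and Cish. The phosphatase Ptpn6 was lower in deficient tumors by 1.27 (adjusted p = 0.00616) and in control tumors by 0.89 (adjusted p = 0.0432), the latter lost in 6 of 8 fits without 1 array. Usp18, an interferon-induced inhibitor of the type I interferon receptor, read 7.57, 8.16 and 7.72 in normal thymocytes 1 to 3, 6.35, 7.07, 6.23, 5.92 and 5.97 in control tumors 1 to 5, and 8.75, 7.28, 8.34 and 8.50 in deficient tumors 1 to 4. It was lower in control tumors than in normal thymocytes by 1.51 (SE 0.322, adjusted p = 0.00375) and higher in deficient than in control tumors by 1.91 (SE 0.296, adjusted p = 0.0178), and no deficient tumor overlapped a control tumor. The latter call ended without control tumor 3, deficient tumor 3 or deficient tumor 4 (adjusted p up to 0.0744), without control tumors 3 and 4 together and in the fit of these 2 groups alone.

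Of 15 STAT target genes 9 were lower and 0 higher in control tumors, beside 11.3% lower and 13.0% higher of all genes, and 9 were lower and 1 higher in deficient tumors, beside 19.0% and 18.7%. At an unadjusted p under 0.05 there were 10 in control tumors, of which Gadd45g, a growth arrest gene named after its values were seen, lay higher (2.12, SE 0.764, unadjusted p = 0.0158, adjusted p = 0.0607). Control tumors 1 to 4 read 8.78 to 9.68 and the fifth 5.65, while normal thymocytes read 6.43 to 6.55. The list's median difference was -0.77 and -0.65, against -0.08 and -0.10 over all genes. The list was chosen with earlier results of these data known, so its counts and medians are a description. The lower genes included the survival genes Bcl2l1 (-3.26 and -3.35), Bcl2 (-0.81 and -1.25) and Mcl1 (-0.90 and -1.58), the repressor Bcl6 (-2.58 and -3.17), the cyclin Ccnd3 (-2.25 and -2.25) and the kinases Pim1 (-1.10 and -1.30) and Pim2 (-0.64 and -0.65), with adjusted p up to 0.0112 among these. The other lower genes were Bcl3 and Junb. Several of these genes, though not all, are also high at the double-positive stage and have inputs other than STATs. Whether cell stage, STATs or other inputs bear on the lower values was not tested. The gene that rose in deficient tumors was the cyclin Ccnd1 (2.05, SE 0.584, adjusted p = 0.0145). Bcl2, Bcl3, Junb, Mcl1, Pim1, Pim2 and Ccnd1 were named after their values were seen. Of 21 cytokine genes none was higher, and 1 and 2 were lower: Il4 in both (-0.42 and -0.49, adjusted p = 0.0370 and 0.0152) and Il27 in deficient tumors (-0.72, adjusted p = 0.00591). These are 4.76% and 9.52% of the list, under the 24.4% and 37.6% of all genes. Many cytokine genes read low, such as Il6 (mean 3.47 in normal thymocytes), Il7 (3.85) and Tslp (3.75), under the 25th percentiles of the arrays (5.09 to 5.32). Il4 averaged 5.86 there, and Il27 was brighter at 7.27. The part of low signal in the small share was not tested. The control tumor call of Il4 was lost in 5 of 8 fits without 1 array and that of deficient tumors without normal thymocytes 2 (adjusted p = 0.0778), and both were lost after a second quantile normalization or cyclic loess.

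**Figure D3:**
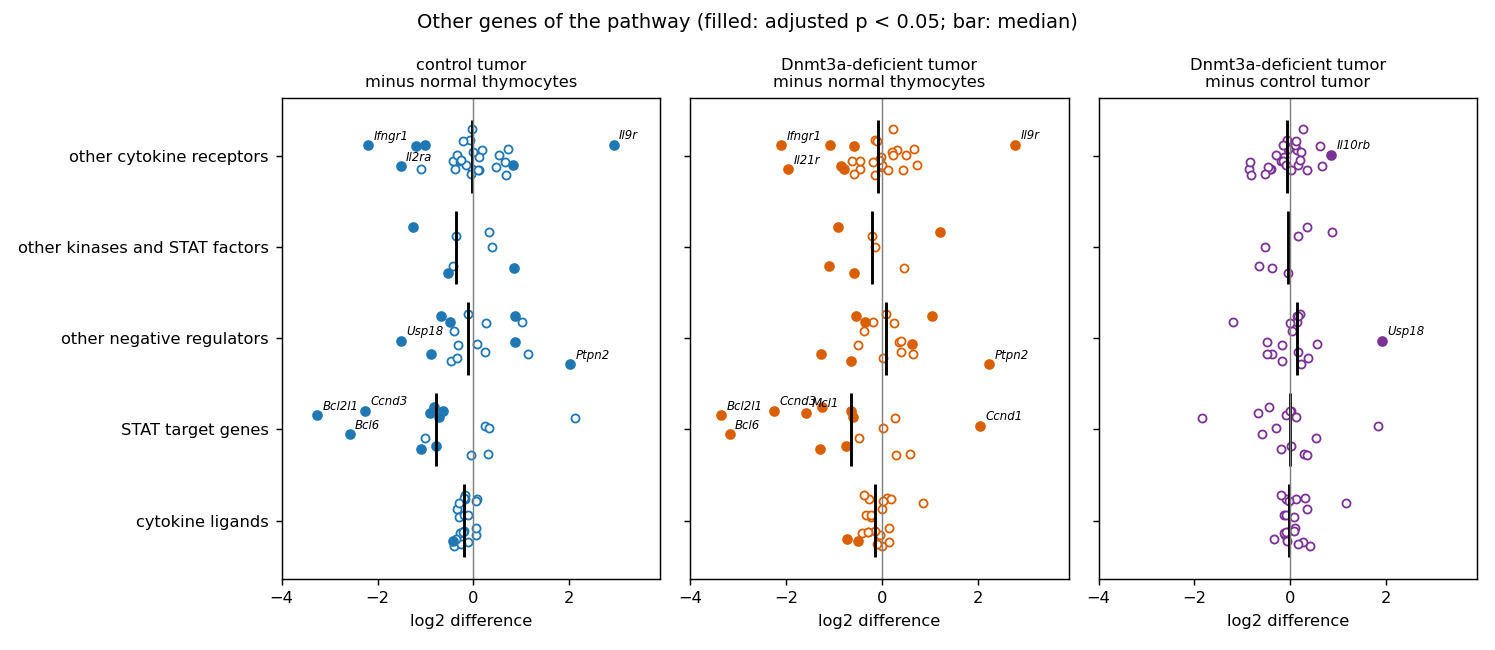
Log2 differences of the 88 other measured genes of the pathway (x axis), by list (rows), in the 3 comparisons; filled points had an adjusted p under 0.05 and black bars are list medians. Most filled points of the STAT target list lie left of 0 against normal thymocytes, Il9r stands furthest right there, and 2 points are filled between the tumor groups.

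Between deficient and control tumors 2 of the 88 genes were called, Usp18 and Il10rb, beside 0.818% of all genes. Il10rb, a receptor chain shared by IL-10, IL-22 and interferon lambda, read 7.18, 7.90, 7.29, 7.66 and 7.31 in control tumors 1 to 5 and 8.09, 8.59, 8.56 and 8.0 in deficient tumors 1 to 4, a difference of 0.84 (SE 0.177, adjusted p = 0.0477). All deficient tumors lay above all control tumors, but the call was lost in 7 of 9 fits without 1 array (all but those without control tumor 1 or 2; adjusted p up to 0.163) and under 3 of the 4 other scalings. The number of called genes was 0 without control tumor 3, deficient tumor 3 or deficient tumor 4, 1 without control tumor 4 and 8 without control tumor 2.

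**Figure D4:**
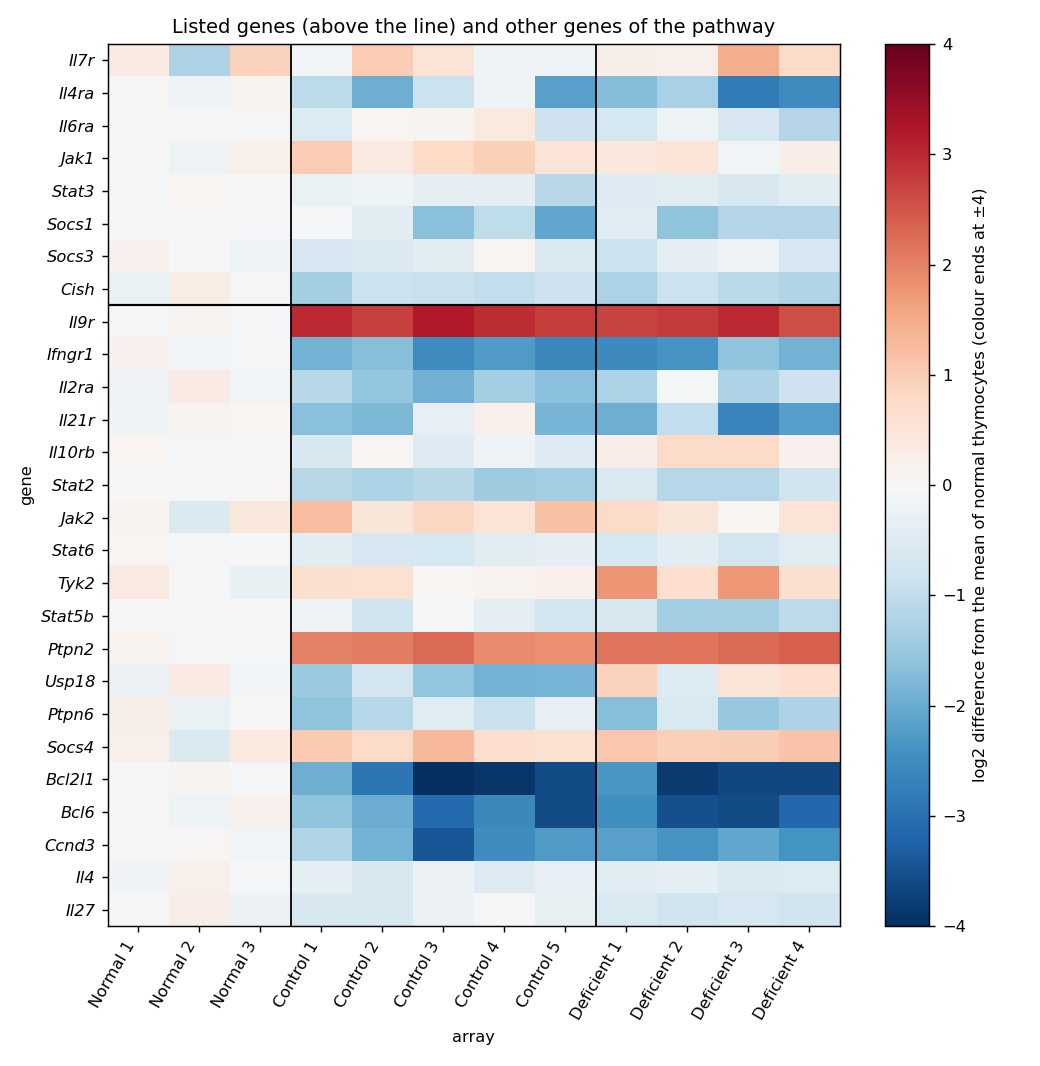
Log2 value on each array (columns) minus the mean of normal thymocytes, for the 8 listed genes (above the line) and the other genes of the pathway named by rule; red is higher, blue is lower, and the colour scale ends at 4 log2 units in either direction. Il9r and Ptpn2 are red in all 9 tumors, and Bcl2l1, Bcl6 and Ccnd3 are blue in all 9.

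For the 4 genes called in at least 1 comparison, the most similar profiles over the 12 arrays were found by the root mean square (RMS) difference between log2 values after each gene was centred on its own mean. The profile nearest to Il4ra was that of Il21r (RMS difference 0.31, beside 0.98 for the variation of Il4ra itself), followed by the actin regulator Mical1 (0.34) and the receptor-induced factor Egr2 (0.40). For Cish they were Tmbim6 (0.13, beside 0.49 for Cish itself), Yif1a (0.14) and the potassium channel gene Kcnh1 (0.15). For Socs1 they were Flot2 (0.20, beside 0.70), Mex3b (0.22) and the microtubule protein gene Map4 (0.26). For Jak1 they were the surface receptor Cd84 (0.15, beside 0.37), the connexin gene Gja5 (0.18) and the phosphatase Cdc25b (0.19). These profiles share the arrays and the group differences, so the likeness is a description.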

How the data were processed

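Total RNA was measured on single-channel arrays. The authors deposited log2 values for each probe set, which RMA computed (Affymetrix Expression Console is the software named, without a version, per the submitters' processing notes). Of 23858 probe sets, 20870 were annotated to a single symbol, 1453 to several and 1535 to none. Where a gene had more than 1 set (849 genes) the brightest was kept. No batch or scan date is named in the labels. Quartiles differed between arrays, and a joint normalization of all arrays is not stated. Dim genes were kept.

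With limma 3.58.1 (R 4.3.3), a model of 3 group means was fitted (residual degrees of freedom 9, prior 4.17), with two-sided tests, and it was checked on simulated data. There, with far fewer changed genes than were called here against normal thymocytes, 2.99% to 4.48% of changes of 0.5 log2 units were called. Changes of 1 unit were called in 56.72% to 65.67% and of 2 units in 96.97% to 100%. A true difference near 0.5 can thus go uncalled. The number of arrays limits the precision. Members, lists and alternatives were chosen with earlier results of these data known. Named genes were the 8 listed genes, up to 3 called genes with the largest difference per list and comparison, and the 3 most similar profiles of each called listed gene, unnamed gene models left out. Other genes are marked in the text or serve to check labels. Listed genes without a probe set of their own were not analysed here. Alternatives were 4 scalings, a filter on dim genes, the mean of probe sets, fits of 2 groups, a replicate block, array weights and arrays left out.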

Additional observations from a re-analysis of the deposited data

Results flagged for a closer look

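In 54 groups of 4 or 5 tumors, over 27 genes, 3 arrays stood far from the others of their group by Dixon's criterion, which flags about 1 in 20 groups by chance. Stat3 in control tumor 5 read 8.80, against 9.54 to 9.74 in the other control tumors. Cish in control tumor 1 read 5.85, against 6.23 to 6.36. Bcl2l1 in deficient tumor 1 read 8.51, against 7.02 to 7.20 in the other deficient tumors, and control tumor 1 was also the highest control tumor for this gene at 8.87. The change from normal thymocytes differed between the tumor groups for Usp18, by 1.91 (adjusted p = 0.0178), and for Il10rb, by 0.84 (adjusted p = 0.0477), in limma's direct comparison of deficient with control tumors.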

How the results depend on the processing

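Of the 24 comparisons of the 8 genes, 7 kept direction and call in every alternative: Cish in all 3, Il4ra and Il7r in deficient against normal, and Il7r and Il6ra in deficient against control tumors. The dim-gene filter gave no value for Cish. In control tumors against normal thymocytes the number of the 8 genes called was 5 with 75th percentile centring, 6 when quantiles were normalized again, and 1 to 4 without 1 array. In deficient tumors against normal thymocytes it was 6 with 75th percentile centring, second quantile normalization, the 2-group fit and array weights, 5 after cyclic loess, and 2 to 3 without 1 array; between tumor groups it was 2 with array weights and 0 without 1 array. Other pathway genes called in deficient tumors against normal thymocytes numbered 48 with 75th percentile centring and 24 to 27 without 1 array, and in control tumors 18 to 28. Between tumor groups they numbered 1 with 75th percentile centring, second quantile normalization, cyclic loess or the replicate block, 0 in the 2-group fit and without control tumors 3 and 4, 17 with array weights, 16 without control tumors 1 and 2, and 0 to 8 without 1 array.

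Over all genes, calls between tumor groups numbered 306 with median centring, 102 after second quantile normalization, 1 in the 2-group fit, 104 with the replicate block, 3328 with array weights, 4886 without control tumors 1 and 2, 6 without control tumors 3 and 4, and 16 to 1482 without 1 array. In deficient tumors against normal thymocytes 11834 were called with 75th percentile centring (5409 to 6732 without 1 array), and in control tumors 3199 to 5074 without 1 array. That centring moved the median of all genes to -0.29, -0.48 and -0.18 in the 3 comparisons, and its calls split into 1988 higher and 4417 lower in control tumors against normal thymocytes (2519 and 2187 as deposited), 2560 and 9274 in deficient tumors (3602 and 3660), and 60 and 80 between tumor groups (114 and 44; 258 and 48 with median centring, 57 and 45 after second quantile normalization, 86 and 56 after cyclic loess). The centring lowers every difference of a comparison by the same amount, and how far this accounts for the gain in lower calls was not tested. The causes of the other moves were not tested.

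Uncalled differences changed sign as follows. Il6ra in control tumors against normal thymocytes was 0.0269 with the replicate block and -0.30 to 0.0077 without 1 array, and Il7r there was -0.40 to 0.67 without 1 array. Jak1 in deficient tumors against normal thymocytes was -0.11 with 75th percentile centring and -0.0385 after cyclic loess. Between tumor groups Stat3 was 0.10 without control tumors 1 and 2 and -0.22 to 0.0112 without 1 array, Socs1 was 0.14 with array weights, 0.47 without control tumors 1 and 2 and -0.31 to 0.19 without 1 array, and Socs3 was 0.0863 without control tumors 3 and 4 and -0.19 to 0.0402 without 1 array. Arrays of different groups share only a replicate number: deviations of same-numbered arrays correlated between -0.134 and 0.338, and normal thymocytes 1 correlated more with deficient tumor 4 (0.105) than with control tumor 1 (0.086). With the replicate block the 8 genes had 2 calls in control tumors against normal thymocytes, 4 in deficient tumors and 0 between tumor groups; it ended the control tumor call of Il4ra (-1.08, adjusted p = 0.121) and added that of Stat3 in deficient tumors (-0.52, adjusted p = 0.0179). It also ended the calls of Usp18 and Il10rb between tumor groups.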
